A study of Mus musculus with 9 samples.

Results

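The 9 genes described here are Nlrp14, 5 Nlrp4 genes (Nlrp4a, Nlrp4b, Nlrp4c, Nlrp4e and Nlrp4f) and 3 Nlrp9 genes (Nlrp9a, Nlrp9b and Nlrp9c). They were listed as germline members of the mouse Nlrp family outside the subcortical maternal complex, the protein lattice under the egg surface that contains NLRP5. They were taken by gene symbol, by a rule that uses no measured value, and all 9 were found among the 26358 genes of the deposited table. Poly(A) RNA of mouse oocytes was sequenced as 9 libraries in 3 groups of 3. Oocytes of the cryopreservation-2 group were frozen in a straw, with PVA/Fe3O4/GO nanoparticles, 1 M trehalose and 17.5% EG. Oocytes of the cryopreservation-1 group were frozen on a cryotop, with 0.5 M sucrose, 15% DMSO and 15% EG. Oocytes of the fresh group carry only the label fresh. The 2 freezing methods thus differ at once in device, in solutes and in particles. The labels do not state the strain, age, stage of maturation or number of oocytes behind a library.

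NLRP proteins join a pyrin domain, a nucleotide-binding NACHT domain and leucine-rich repeats. Some members, such as NLRP3 in immune cells, assemble inflammasomes that activate the protease made by Casp1. The genes described here belong to a branch transcribed mainly in oocytes, where the message is stored during growth and lost after fertilisation. In the mouse, embryos from mothers without Nlrp14 arrest early, and the NLRP14 protein binds UHRF1, a regulator of DNA methylation. Knock-down of Nlrp4e has been reported to halt mouse embryos before the blastocyst. Mouse NLRP4F has been found together with proteins of the subcortical maternal complex, and mouse NLRP9B senses viral double-stranded RNA with DHX9 in the intestine.

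The genes lie in groups on the mouse genome (build GRCm38, positions as in the deposited table and identical in the GENCODE annotation of that build). Of the 9, 8 are on chromosome 7, and Nlrp4f alone is on chromosome 13, at chr13:65177111-65205977 on the minus strand. Nlrp9c (chr7:26322473-26403700, minus strand), Nlrp4a (chr7:26435113-26476142, plus strand) and Nlrp9a (chr7:26535023-26575615, plus strand) stand next to each other. The gaps between them are 31.4 kb and 58.9 kb and hold 0 other protein-coding genes. Nlrp4e (chr7:23301192-23362277, plus strand) lies 23.6 kb from Nlrp5, again with 0 coding genes between. Nlrp4c (chr7:6045161-6105150), Nlrp4b (chr7:10687789-10730168), Nlrp9b (chr7:19991465-20073306) and Nlrp14 (chr7:107166990-107198102), all on the plus strand, are each more than a megabase from their nearest member.

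The annotated coding sequences are alike within each branch. They span 2589 to 3012 bases, in transcripts of 9 to 11 exons. Nlrp4c and Nlrp4e were identical at 93.9% of 2934 aligned coding bases, and Nlrp9a and Nlrp9c at 87.4% of 3009. Nlrp9b matched Nlrp9a at 83.5%, and Nlrp4f matched Nlrp4a at 83.4%. Nlrp14 was at most 57.4% identical to any other member.

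RefSeq promoter windows of 300 bases, most of them upstream of an annotated start, were matched by symbol for 8 of the 9 genes, as 10 windows; Nlrp14 was not matched. The following 5 are a pair of close copies (Nlrp9a and Nlrp9c) and a separate set of copies (Nlrp4a, Nlrp4b and Nlrp4c). They are shown because the pair stands at genes of nearer level per length, and the set includes genes of very unlike level (Nlrp4a and Nlrp4c). The window of Nlrp4a is that of the second of its annotated starts. They are RefSeq sequences of build GRCm38.p6, 5′ to 3′ on the strand of the gene, with the letters CCAAT, on either strand (as ATTGG), in capitals. CCAAT is the word bound by the factor NF-Y.
Nlrp9a (chr7:26534773-26535072, plus): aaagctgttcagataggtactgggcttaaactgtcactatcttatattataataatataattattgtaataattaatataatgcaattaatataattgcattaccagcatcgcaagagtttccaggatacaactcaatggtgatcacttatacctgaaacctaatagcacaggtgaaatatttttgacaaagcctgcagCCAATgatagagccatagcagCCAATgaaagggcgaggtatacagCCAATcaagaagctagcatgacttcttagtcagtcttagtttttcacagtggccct
Nlrp9c (chr7:26403651-26403950, minus): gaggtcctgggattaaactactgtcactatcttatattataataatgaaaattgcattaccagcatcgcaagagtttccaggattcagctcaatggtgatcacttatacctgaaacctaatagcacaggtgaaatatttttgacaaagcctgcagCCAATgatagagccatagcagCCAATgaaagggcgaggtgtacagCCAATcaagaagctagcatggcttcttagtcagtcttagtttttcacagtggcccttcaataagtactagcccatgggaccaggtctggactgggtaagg
Nlrp4a (chr7:26435364-26435663, plus): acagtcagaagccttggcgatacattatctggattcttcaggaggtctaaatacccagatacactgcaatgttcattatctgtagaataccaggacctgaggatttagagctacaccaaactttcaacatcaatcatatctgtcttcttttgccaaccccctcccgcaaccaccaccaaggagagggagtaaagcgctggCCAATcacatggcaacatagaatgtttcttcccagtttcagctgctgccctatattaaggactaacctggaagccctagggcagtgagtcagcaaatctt
Nlrp4b (chr7:10687543-10687842, plus): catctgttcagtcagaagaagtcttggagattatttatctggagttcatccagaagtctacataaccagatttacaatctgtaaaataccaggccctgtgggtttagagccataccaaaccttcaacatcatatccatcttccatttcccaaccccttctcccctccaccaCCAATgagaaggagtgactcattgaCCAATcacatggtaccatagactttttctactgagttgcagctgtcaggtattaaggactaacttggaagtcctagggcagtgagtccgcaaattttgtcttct
Nlrp4c (chr7:6044911-6045210, plus): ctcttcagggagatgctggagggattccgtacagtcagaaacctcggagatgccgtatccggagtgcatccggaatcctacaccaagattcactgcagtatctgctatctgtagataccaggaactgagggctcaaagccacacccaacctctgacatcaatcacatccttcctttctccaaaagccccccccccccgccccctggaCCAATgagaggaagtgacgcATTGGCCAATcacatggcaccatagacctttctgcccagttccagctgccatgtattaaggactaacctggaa

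The Nlrp9a and Nlrp9c windows were identical at 96.8% of 252 aligned bases, and both held 3 CCAAT words. The Nlrp4a window shown matched that of Nlrp4b at 80.7% of 280 bases and that of Nlrp4c at 78.3% of 263, and Nlrp4b matched Nlrp4c at 80.2% of 257. The window at the first annotated start of Nlrp4a, not shown, aligned with that of Nlrp4c over only 24 bases and held 0 CCAAT words. CCAAT was found in 7 of the 10 windows (6 of the 8 genes), and in 37.4% of all 32851 mouse windows. Some of the 10 are copies of each other, as given above, and the 2 Nlrp4b windows share 272 identical bases, so these are not separate occurrences. Nlrp9a, Nlrp9c and Nlrp4c each had 3, and 3 or more were found in 3.37% of all windows. The E-box CANNTG, read by basic helix-loop-helix factors such as FIGLA, was in all 10 windows of the 8 genes and in 72.3% of all windows. TAATTG, the word bound by the oocyte homeobox factor NOBOX, was in the windows of Nlrp9a and Nlrp9b and in 8% of all windows. All 3 words were searched on both strands, and their letters allow one to share bases with another. In these 10 windows, 0 of the 15 CCAAT words shared a base with a CANNTG or TAATTG word. These are matches of letters, and binding was not measured.

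Total counts lay between 49337232 and 51369012 in cryopreservation-2, 64276885 and 80877288 in cryopreservation-1, and 73899130 and 80100460 in fresh libraries. No pair of replicates agreed within sampling noise. The labels do not say whether replicates came from separate oocyte pools, and p-values cover no more than the spread among these libraries. The library with the fewest detected genes in each group (at least 10 counts) was cryopreservation-2 replicate 1 with 14751, cryopreservation-1 replicate 3 with 15464 and fresh replicate 3 with 14881, against 15933 to 16788 in the other 6. All 10 oocyte markers were present, led by Gdf9, and together took 0.920% to 1.83% of the counts of a library. Cumulus and granulosa markers took 0.00483% to 0.00892%. Of the 8 measured, Cyp19a1 had 1671 to 5264 counts and Nr5a2 554 to 1421 counts per library, and each of the other 6 at most 225. Immune and blood markers took 0.000266% to 0.00146%. Of the 6 measured, C1qb had 93 to 802 counts and Cd68 39 to 411 counts, and each of the other 4, Ptprc among them, at most 7. Stromal and endothelial markers took 0.0113% to 0.0199% in cryopreservation-2, 0.00943% to 0.0172% in cryopreservation-1 and 0.00947% to 0.0166% in fresh libraries. Of the 5 measured, Pecam1 had 3634 to 10767 counts and Myh11 1166 to 2173 counts, and each of the other 3, Col1a1 among them, at most 32. Of the 11 tested markers of these other cell types, Myh11, a smooth-muscle myosin, passed the test, higher in cryopreservation-2 (36.3 ± 2.09 CPM) than in fresh (19.7 ± 2.61 CPM; SD, n = 3 each; adjusted p = 0.0404 by edgeR, and 0.0575 to 0.110 when any 1 library was left out). Of all tested genes, 3.18% were called higher in that comparison. The part of Myh11 in the results below was not tested.

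The 9 genes are abundant messages of these oocytes, with 1 exception. Levels of different genes were compared as FPKM, the count per gene length and library size as deposited. Nlrp14 stood highest in fresh oocytes, at 340 ± 45.0 FPKM (SD, n = 3), which ranked it 135 among the 26358 genes. Nlrp4f followed at 257 ± 29.1 FPKM. Nlrp4c was lowest, at 2.92 ± 0.213 FPKM, rank 5748.

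In fresh oocytes the order below Nlrp4f was Nlrp4a (132 ± 19.7 FPKM), Nlrp9c (114 ± 13.2), Nlrp9a (94.3 ± 32.0), Nlrp4b (83.3 ± 19.4), Nlrp4e (30.0 ± 6.28) and Nlrp9b (28.8 ± 2.73). The ranges over libraries separated Nlrp14 from Nlrp4f, Nlrp4f from Nlrp4a, Nlrp4b from Nlrp4e and Nlrp9b from Nlrp4c. They overlapped between neighbours among Nlrp4a, Nlrp9c, Nlrp9a and Nlrp4b, and between Nlrp4e and Nlrp9b. Within the first of these groups, by FPKM, the range of Nlrp4a still lay wholly above that of Nlrp4b, and Nlrp9a exceeded Nlrp4b in 3 of 3 libraries. By CPM, which uses no gene length, fresh means were 447 ± 106 for Nlrp4b and 392 ± 131 for Nlrp9a (SD, n = 3 each). Those of Nlrp9c and Nlrp4a were 809 ± 132 and 758 ± 82.8 CPM (SD, n = 3 each). The order within these pairs is thus the reverse by CPM and depends on the gene lengths used in the deposited FPKM. In all 3 groups the ranges of Nlrp4e and Nlrp9b lay under those of the 6 more abundant genes and above that of Nlrp4c. In cryopreservation-2 oocytes, Nlrp4a came second by its mean (233 ± 178 FPKM), ahead of Nlrp4f (196 ± 22.3 FPKM), but only 1 of the 3 libraries had Nlrp4a above Nlrp4f. In cryopreservation-1 oocytes, Nlrp14 (283 ± 21.9 FPKM) and Nlrp4f (280 ± 51.1 FPKM) overlapped.

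**Figure D1:**
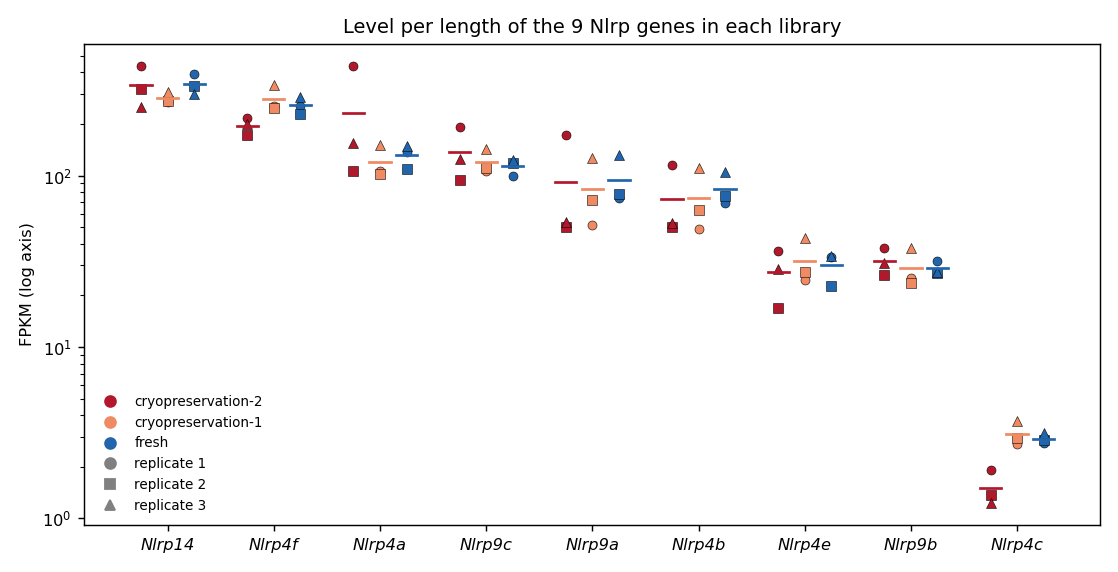
FPKM of the 9 genes on a log axis, with 1 point per library, shaped by replicate number, and a short line at the mean of each group of 3 libraries. By its mean, Nlrp14 lies at the top of every group, and Nlrp4c, at 1.23 to 3.70 FPKM over the 9 libraries, lies far under the others.

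Close sequence went with nearer levels per length in one pair and with very unlike levels in another. Per length, Nlrp4a was 77.6 to 227 times as high as Nlrp4c in cryopreservation-2 libraries. The ratio was 34.9 to 40.8 in cryopreservation-1 and 38.4 to 50.0 in fresh libraries. Their coding sequences (86.3% identical) are close, and so is the window shown for Nlrp4a to that of Nlrp4c. The window at the first annotated start of Nlrp4a is not. Nlrp9a stood at 0.431 to 1.06 times the FPKM of Nlrp9c over all 9 libraries, and at 0.996 to 1.51 times that of Nlrp4b. By CPM, which uses no gene length, fresh means were 392 ± 131 for Nlrp9a and 809 ± 132 for Nlrp9c (SD, n = 3 each). Their annotated transcripts span 3336 and 3216 bases. The nearness of this pair, like the order of Nlrp9a and Nlrp4b given above, thus depends on the gene lengths used in the deposited FPKM. Together the 9 genes took 0.567 ± 0.231% of the counts in cryopreservation-2, 0.463 ± 0.0876% in cryopreservation-1 and 0.499 ± 0.0431% in fresh libraries (SD, n = 3 each).

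Neither Nlrp14 nor any Nlrp4 or Nlrp9 gene was called between oocytes frozen in a straw with nanoparticles and unfrozen ones, but Nlrp4c and Nlrp4f stood lower in every cryopreservation-2 library. Differences between libraries were tested on the counts of all 17545 genes that passed a filter on low counts, all 9 members among them, with edgeR's quasi-likelihood test and Benjamini-Hochberg adjustment. A gene was called at an adjusted p under 0.05, and levels are given as CPM, counts scaled to library size with TMM factors. Of the 9 genes, 0 were called, against 5.38% of all tested genes (3.18% higher and 2.2% lower in cryopreservation-2), and 2 (Nlrp4c and Nlrp4f) had an unadjusted p under 0.05, against 21.8%. The libraries of Nlrp4c and Nlrp4f did not overlap between the groups, both lower in cryopreservation-2. Of all tested genes, 27.5% did not overlap, with 15.1% higher and 12.4% lower in cryopreservation-2. The median log2 difference was -0.13 over the 9 genes and -0.06 over all tested genes, with 3 of the 9 positive. In bulk RNA of this kind, fewer messages per cell and fewer cells that hold them cannot be told apart.

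Nlrp4c came nearest to a call. Its values were 8.89, 5.91 and 5.13 CPM in cryopreservation-2 (464, 324 and 308 counts), 12.5, 13.5 and 16.7 CPM in cryopreservation-1, and 12.4, 14.7 and 15.0 CPM in fresh libraries. Every cryopreservation-2 library lay under every library of the other groups. The means were 6.65 ± 1.98 CPM in cryopreservation-2 and 14.0 ± 1.43 CPM in fresh (SD, n = 3 each), a log2 difference of -1.08 (SE 0.28, 95% interval -1.70 to -0.45), with an adjusted p of 0.0538 by edgeR. The gene lay just outside the threshold and was called in 5 of 21 alternatives. Among these, DESeq2 called 2471 of all tested genes, against 944 in the main edgeR fit. DESeq2 gave an adjusted p of 0.00484, limma on log2(FPKM + 1) gave 0.0374, and edgeR without cryopreservation-2 replicate 1 gave 0.0361, while over all 21 alternatives it ran from 0.00484 to 0.164.

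Nlrp4f, a far more abundant message, was also lower in each cryopreservation-2 library. It stood at 963, 712 and 801 CPM in cryopreservation-2, 1133, 1095 and 1468 CPM in cryopreservation-1, and 1104, 1139 and 1315 CPM in fresh libraries. The means of 825 ± 127 CPM in cryopreservation-2 and 1186 ± 113 CPM in fresh (SD, n = 3 each) gave a log2 difference of -0.52 (SE 0.19, 95% interval -0.95 to -0.10), with an adjusted p of 0.141 by edgeR. No alternative called it, with adjusted p-values between 0.0860 and 0.352.

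Nlrp14 overlapped between these groups. Its values were 1779, 1218 and 921 CPM in cryopreservation-2 and 1543, 1504 and 1253 CPM in fresh libraries. The frozen libraries held both the highest and the lowest value. The log2 difference was -0.13, with a 95% interval of -0.65 to 0.38 and an adjusted p of 0.807 by edgeR.

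Nlrp4a had the largest positive difference of the 9, and it rested on 1 library. Cryopreservation-2 replicate 1 held 2432 CPM, against 552 and 780 CPM in the other cryopreservation-2 libraries and 747, 681 and 845 CPM in fresh libraries. Those other libraries lay in or under the fresh range. The log2 difference was 0.73 (SE 0.45, 95% interval -0.28 to 1.74; adjusted p = 0.399 by edgeR), and -0.14 without cryopreservation-2 replicate 1 (adjusted p = 0.825).

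The other 5 genes overlapped between cryopreservation-2 and fresh. Nlrp4b had 593, 241 and 247 CPM in cryopreservation-2, 253, 324 and 553 CPM in cryopreservation-1, and 347, 436 and 559 CPM in fresh libraries. Nlrp4e had 143, 61.4 and 100.6 CPM in cryopreservation-2, 96.7, 107 and 165 CPM in cryopreservation-1, and 127, 99.0 and 136 CPM in fresh libraries. For both, 1 cryopreservation-2 library lay above the fresh range and at least 1 under it. Nlrp9b had 163, 105 and 120 CPM in cryopreservation-2, 109, 100.9 and 157 CPM in cryopreservation-1, and 133, 129 and 120 CPM in fresh libraries. Nlrp9c had 1319, 597 and 765 CPM in cryopreservation-2, 728, 758 and 951 CPM in cryopreservation-1, and 658, 904 and 866 CPM in fresh libraries. Replicate 1 of cryopreservation-2 was again above every fresh library for both Nlrp9 genes, and Nlrp9a is described with the replicates below.

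The intervals of these 5 genes differed in width. Nlrp9b had the narrowest interval among them, at 129 ± 30.3 CPM in cryopreservation-2 and 128 ± 6.70 CPM in fresh (SD, n = 3 each), with a log2 difference of 0.02 and a 95% interval of -0.50 to 0.53. Nlrp9a had the widest, a log2 difference of -0.13 with an interval of -1.27 to 1.01. Nlrp9c differed by 0.14 (-0.48 to 0.77), Nlrp4b by -0.31 (-1.19 to 0.57) and Nlrp4e by -0.25 (-0.95 to 0.45). All 5 intervals include 0 and differences of either sign, so the data do not show that the levels were equal.

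**Figure D2:**
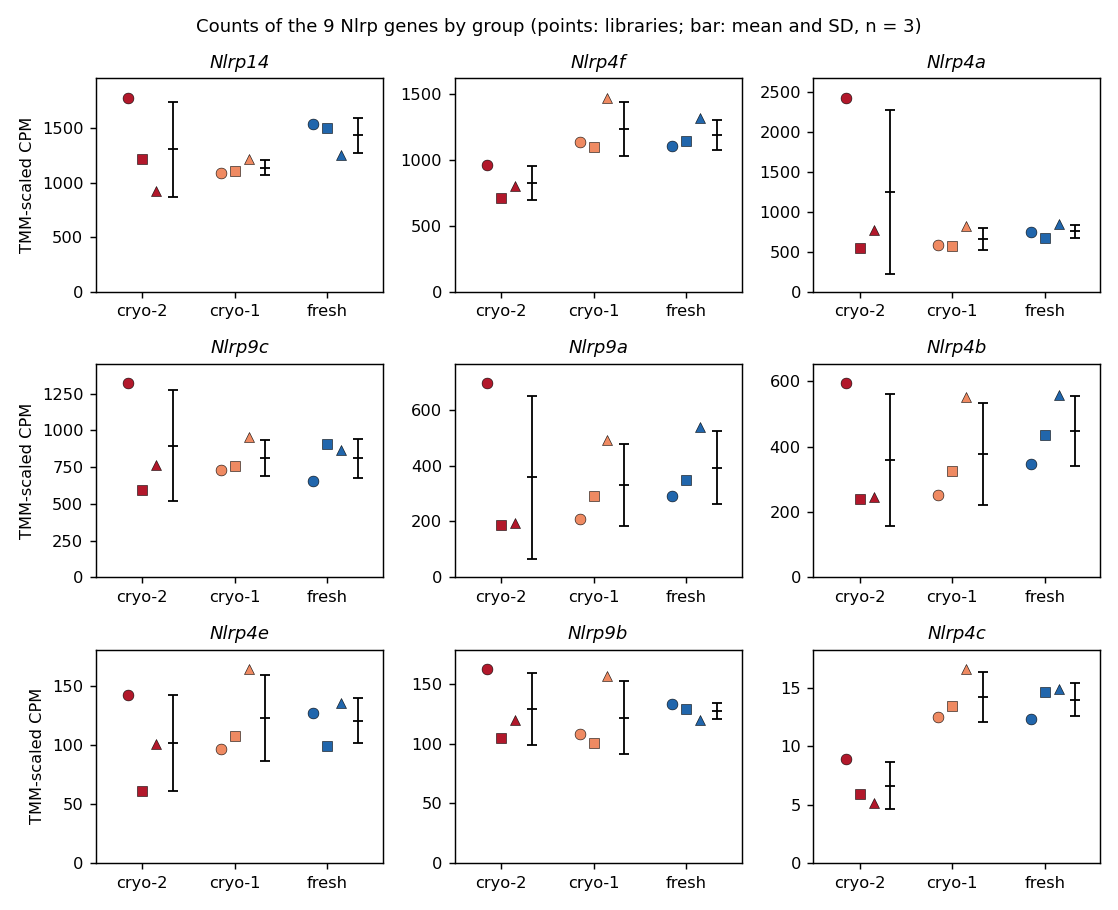
TMM-scaled CPM of each gene on linear axes from 0, with 1 point per library, shaped by replicate number as in the plot of FPKM, and a bar at the mean with the SD (n = 3) for cryopreservation-2 (cryo-2), cryopreservation-1 (cryo-1) and fresh. The cryopreservation-2 points of Nlrp4c and Nlrp4f lie under all other points of their panels, and replicate 1 of cryopreservation-2 stands alone at 2432 CPM for Nlrp4a.

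None of the genes was called between oocytes frozen on a cryotop and unfrozen ones, and Nlrp14 was lower in each cryopreservation-1 library. Of the 9 genes, 0 were called by edgeR, and 0% of all tested genes were. At an unadjusted p under 0.05 there were 0 of the 9 and 828 of all tested genes (4.72%), and DESeq2 called 43 genes, again 0 of the 9. Nlrp14 was the only member whose libraries did not overlap, lower in cryopreservation-1. Libraries did not overlap for 10.1% of all tested genes (6.37% higher and 3.72% lower in cryopreservation-1). Nlrp14 had 1093, 1103 and 1220 CPM in cryopreservation-1, against 1543, 1504 and 1253 CPM in fresh libraries, so that the gap between the nearest libraries was small. The means were 1139 ± 70.6 CPM in cryopreservation-1 and 1433 ± 158 CPM in fresh (SD, n = 3 each), a log2 difference of -0.33 (SE 0.23, 95% interval -0.85 to 0.19; adjusted p = 1 by edgeR).

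The other 8 genes overlapped between cryopreservation-1 and fresh oocytes. Their log2 differences ran from -0.25 for Nlrp9a to 0.05 for Nlrp4f. The widest 95% interval was that of Nlrp9a, -1.39 to 0.89. The narrowest was that of Nlrp4f, -0.37 to 0.48, with means of 1232 ± 205 CPM in cryopreservation-1 and 1186 ± 113 CPM in fresh (SD, n = 3 each). The median over the 9 genes was -0.06, against 0.02 over all tested genes. Deviations of same-numbered libraries of these groups correlated at 0.172, 0.239 and 0.294. The correlations of different-numbered libraries are not given here. With each library set against all libraries of the other groups, 3 of 9 were closest to their own number. These values thus do not establish a pairing. Among same-numbered libraries, Nlrp14, Nlrp4a, Nlrp4b and Nlrp9a were each lower in cryopreservation-1 in 3 of 3, as were 12.3% of all tested genes.

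With the freezing methods set against each other, Nlrp4c and Nlrp4f again stood lower in cryopreservation-2, and neither was called. This comparison shares its libraries with the 2 above and is not independent of them. Of the 9 genes, 0 were called, against 2.75% of all tested genes (1.5% higher and 1.25% lower in cryopreservation-2). At an unadjusted p under 0.05 there were 2, against 18.9% of all tested genes. The libraries of these 2 genes did not overlap, and neither did those of 29% of all tested genes (13.8% higher and 15.2% lower in cryopreservation-2). Nlrp4c, at 6.65 ± 1.98 CPM in cryopreservation-2 and 14.2 ± 2.16 CPM in cryopreservation-1 (SD, n = 3 each), had a log2 difference of -1.10 (SE 0.28, 95% interval -1.72 to -0.47; adjusted p = 0.0666 by edgeR and 0.00648 by DESeq2). It was called in 5 of the 21 alternatives, over which its adjusted p ran from 0.00648 to 0.210.

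Nlrp4f stood at 825 ± 127 CPM in cryopreservation-2 and 1232 ± 205 CPM in cryopreservation-1 (SD, n = 3 each), a log2 difference of -0.58 (SE 0.19, 95% interval up to -0.15; adjusted p = 0.130 by edgeR). Nlrp4a differed by 0.93 (-0.08 to 1.94), and by 0.08 without cryopreservation-2 replicate 1. The median over the 9 genes was 0.08, against -0.07 over all tested genes, with 5 of the 9 positive.

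**Figure D3:**
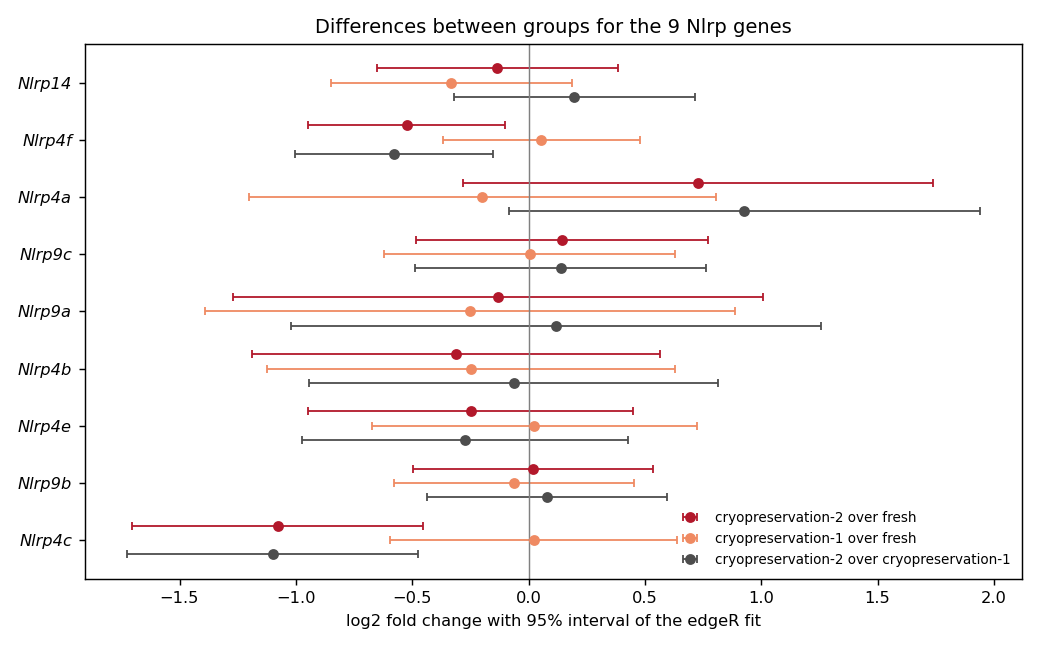
Log2 fold change of each gene with the 95% interval of the edgeR fit for cryopreservation-2 over fresh, cryopreservation-1 over fresh, and cryopreservation-2 over cryopreservation-1. The intervals of Nlrp4c and Nlrp4f lie under 0 in both comparisons of cryopreservation-2, before any adjustment for the number of genes tested, and all other intervals include 0.

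The highest values of most of the genes lay in the same libraries. In cryopreservation-2, replicate 1 held the highest value of all 9 genes, and in cryopreservation-1, replicate 3 did. In fresh oocytes, replicate 3 held the highest value of 6 of the 9. Of all tested genes, 36.5%, 33% and 29.8% were highest in these libraries of cryopreservation-2, cryopreservation-1 and fresh. They are the libraries with the fewest detected genes in their groups, given above. The stromal and endothelial markers were also highest there, at 0.0199%, 0.0172% and 0.0166% of the counts of cryopreservation-2 replicate 1, cryopreservation-1 replicate 3 and fresh replicate 3, and the immune and blood markers lowest, at 0.000266%, 0.000688% and 0.000893%. Cumulus and granulosa markers were highest there too, at 0.00892%, 0.00832% and 0.00824% in the same order. Oocyte markers were lowest there, at 0.920%, 1.155% and 1.229%. The part of these in the values of the 9 genes was not tested.

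Nlrp9a varied most between replicates of cryopreservation-1 and fresh. It had 694, 186 and 194 CPM in cryopreservation-2, 207, 290 and 491 CPM in cryopreservation-1, and 289, 347 and 539 CPM in fresh libraries. In each group 1 library stood above the others, at 3.66, 1.98 and 1.70 times the mean of the other 2 in cryopreservation-2, cryopreservation-1 and fresh. Nlrp4b did so in the same libraries, at 2.43, 1.92 and 1.43 times. In cryopreservation-2 replicate 1, Nlrp4a reached 3.65 times the mean of the other 2, and 3.01% of all tested genes had a ratio there at or above it, while the median gene had 0.901. Nlrp4f was the least raised there, at 1.27 times, and 29.7% of all tested genes had a ratio at or above that.

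The steadiest gene was Nlrp9b in fresh oocytes, with a coefficient of variation (the SD as a percent of the mean) of 5.26%, and the most variable were Nlrp4a and Nlrp9a in cryopreservation-2, with 81.7% and 81.3%. Across the 9 libraries, Nlrp4b and Nlrp9a were the most alike pair (Pearson r of log2(CPM + 1) of 0.983), although they lie on separate stretches of chromosome 7 and their coding sequences are 56.3% identical. Nlrp4c and Nlrp4f, on different chromosomes, followed at 0.944. Over all 36 pairs the median was 0.632, and the lowest values were 0.026 for Nlrp4a and Nlrp4f and -0.089 for Nlrp4a and Nlrp4c. These are descriptions over 9 libraries that share group and depth.

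**Figure D4:**
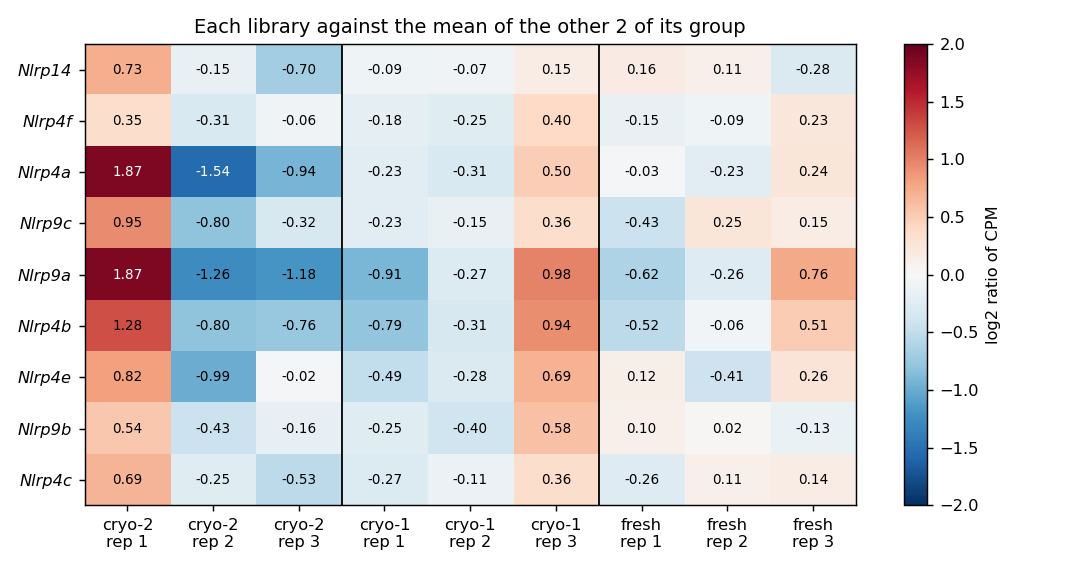
Log2 ratio of the CPM of each library to the mean of the other 2 libraries of its group, with genes in rows and libraries in columns (cryo-2, cryo-1 and fresh, replicates 1 to 3). The column of cryopreservation-2 replicate 1 is positive in all 9 rows, and so is that of cryopreservation-1 replicate 3.

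Close copies of some of these genes exist, and how reads with several matches were counted is not stated. Of all words of 50 bases in the Nlrp4e transcript, 36.9% occur in other genes, chiefly Gm16443, Gm8486 and Gm8685, and 11.5% of words of 100 bases do. For Nlrp4c the shares were 11.9% and 0.939%, with Nlrp4e as the first source at 50 bases, followed by Gm16443 and Gm4541. At 100 bases the main sources were Gm16443, Gm4541 and Gm8486. For Nlrp4f they were 7.08% and 0.145%, with the pseudogene Nlrp4g as the first source at 50 bases and Gm47180 as the source at 100. The Nlrp9 genes shared 4.99% to 6.54% of their words of 50 bases, all with each other, and Nlrp14 and Nlrp4b shared 0%. The values of Nlrp4e and Nlrp4c are therefore uncertain. The share of words does not rank them, since levels differ too. Nlrp4e had 6882 to 10264 counts in fresh libraries, and Nlrp4c 998 to 1062.

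Of the copies outside the 9 genes, 2 that share words with Nlrp4e passed the test, both lower in cryopreservation-2 than in fresh. Of all tested genes, 2.2% were called lower in that comparison. Nlrp4e, the member closest to Nlrp4c, overlapped between these groups, as given above. Gm8486 is also among the main sources of the shared words of 100 bases in Nlrp4c. The copies were chosen for shared sequence, after the values of the 9 genes were known, and 6 of the 7 listed were measured. In cryopreservation-2 against fresh, Gm8486 fell to 3.86 ± 1.41 CPM in cryopreservation-2, against 10.9 ± 2.04 CPM in fresh (SD, n = 3 each; log2 difference -1.50, adjusted p = 0.0310 by edgeR). Gm8685 fell to 4.04 ± 1.83 CPM in cryopreservation-2, against 11.4 ± 1.65 CPM in fresh (SD, n = 3 each; -1.50, adjusted p = 0.0389). Gm16443 and Gm4541 were not called, at -1.47 (adjusted p = 0.0522) and -1.45 (0.0614), nor were Nlrp4g at -0.58 (0.277) and Gm47180 at -0.42 (0.437). The calls of Gm8486 and Gm8685 held in 11 and 9 of 21 alternatives. Both failed when any 1 fresh library, replicate 1 or 2 of cryopreservation-1, or replicate 2 or 3 of cryopreservation-2 was left out, with adjusted p-values up to 0.0999 for Gm8486 and 0.118 for Gm8685, and Gm8685 also failed without cryopreservation-1 replicate 3 (0.0609). Whether reads shared with these copies bear on the values of Nlrp4c was not tested.

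Other genes of the NLR system ranged widely in level, down to the floor of detection, where 3 counts are 0.0372 to 0.0575 CPM. Of 12 other Nlrp genes listed, 10 were measured and 5 tested, with 0 called in any comparison. Nlrp4g, annotated as a transcribed pseudogene, reached 107 ± 40.8 FPKM in cryopreservation-2, 149 ± 22.9 in cryopreservation-1 and 148 ± 20.6 in fresh, and Nlrp5 was next among them, at 85.7 ± 48.8, 48.8 ± 3.51 and 51.2 ± 4.83 FPKM in the same order (SD, n = 3 each). Nlrp3, Nlrp6, Nlrp12 and Nlrp1b, members known from immune and epithelial cells, had at most 15, 7, 18 and 24 counts in any library, while Nlrp1a reached 235 counts. The genes of 2 listed members, Nlrp4d and Nlrp10, were not analysed here.

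Among 11 other NLR genes, 7 were measured and 4 tested, and Naip1, a sensor of bacterial proteins, rose to 13.1 ± 3.15 CPM in cryopreservation-2, against 4.14 ± 1.54 CPM in fresh (SD, n = 3 each; log2 difference 1.66, SE 0.34, adjusted p = 0.0238 by edgeR). Of all tested genes, 3.18% were called higher in that comparison. The call of Naip1 held in 16 of 21 alternatives. Leaving out fresh replicate 2 or 3, or cryopreservation-2 replicate 2, ended it, with an adjusted p of 0.0623, 0.0870 or 0.0651. Nlrc4, the partner that NAIP proteins act through, was the most abundant of them per length, at 11.7 ± 1.65 FPKM in cryopreservation-2, 10.2 ± 1.33 FPKM in cryopreservation-1 and 13.3 ± 1.68 FPKM in fresh (SD, n = 3 each), and was not called. Of 11 inflammasome partners, 7 were measured and 5 tested, with 0 called in any comparison. Casp1, Aim2 and Gsdmd had at most 30, 15 and 3 counts in any library, and Nek7, which binds NLRP3, was the most abundant at 2.23 ± 0.128 FPKM in cryopreservation-2, 3.46 ± 0.585 FPKM in cryopreservation-1 and 3.42 ± 0.193 FPKM in fresh (SD, n = 3 each; adjusted p = 0.0643 for cryopreservation-2 against fresh).

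The subcortical maternal complex, the other home of oocyte NLRP proteins, had 2 of its 7 tested genes called, both higher in cryopreservation-2 than in fresh. Of all tested genes, 3.18% were called higher in that comparison. Padi6, a lattice component, rose to 382 ± 84.3 CPM in cryopreservation-2, against 177 ± 18.7 CPM in fresh (SD, n = 3 each; log2 difference 1.11, adjusted p = 0.0213 by edgeR), and Tle6, a scaffold of the complex, rose to 220 ± 63.8 CPM in cryopreservation-2, against 104 ± 23.9 CPM in fresh (SD, n = 3 each; 1.08, adjusted p = 0.0443). The calls of Padi6 and Tle6 held in 16 and 9 of 21 alternatives. Padi6 was not called when any 1 fresh library (adjusted p 0.0558 to 0.0676) or cryopreservation-2 replicate 2 (0.0582) was left out, and Tle6 was not called without any 1 library other than cryopreservation-2 replicate 1 (0.0609 to 0.138). Of the 7, 6 had a positive log2 difference in that comparison, with a median of 1.08. Zbed3, the exception and the most abundant of the 7, had 8884 ± 2969 CPM in cryopreservation-2 and 17520 ± 3959 CPM in fresh (SD, n = 3 each; log2 difference -0.98, adjusted p = 0.0786 by edgeR), with no overlap. With it, the complex took 1.20 ± 0.375% of counts in cryopreservation-2 and 1.73 ± 0.287% in fresh libraries (SD, n = 3 each). Among the 6 with positive differences, Nlrp2 and Nlrp5 overlapped with fresh, while Ooep, Tle6, Khdc3 and Padi6 did not. Nlrp2 had 133, 56.7 and 57.1 CPM in cryopreservation-2 and 54.1, 61.6 and 57.5 CPM in fresh libraries. Nlrp5 had 791, 334 and 258 CPM in cryopreservation-2 and 304, 287 and 295 CPM in fresh libraries. The median over all tested genes was -0.06. The 6 positive differences stand against 3 of the 9 Nlrp4, Nlrp9 and Nlrp14 genes, and this contrast of lists was not tested. Of 3 genes whose proteins are reported to work with NLRP14, Uhrf1 and Dnmt1 were tested and not called in any comparison, and Slc8b1, which had 93 counts in 1 fresh library and 0 in the other 8, did not pass the filter. Uhrf1 had 328 ± 85.1 CPM in cryopreservation-2, 396 ± 99.0 CPM in cryopreservation-1 and 243 ± 88.9 CPM in fresh libraries (SD, n = 3 each).

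For the 3 most abundant members, the genes with the most alike pattern over the 9 libraries were ranked among 4703 candidates with a mean of at least 5 FPKM. Nlrp14 was closest to Sinhcaf (Pearson r of log2(CPM + 1) of 0.926), Srsf10 (0.904) and Gm15288 (0.902). Nlrp4f was closest to Map3k5 (0.976), Socs4 (0.970) and Naa35 (0.969). Nlrp4a was closest to Gm15446 (0.969), Arl14ep (0.955) and Apc (0.954). These values describe 9 libraries of 3 groups, and nothing about shared function or control was measured.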

How the data were processed

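The authors deposited 1 table with a raw count and an FPKM value per gene for each of 9 libraries. The deposited count is a whole number of reads, not normalized, and the deposited FPKM divides it by gene length and library size. The submitters' processing notes name cutadapt 1.9, HISAT2 2.0.4, StringTie 1.3.4d and build GRCm38. No source used here gives the counting tool or its handling of strand and of reads with several matches. Libraries were dUTP-marked and PCR-amplified, per the labels' protocols, which mention no molecular identifiers, so counting floors cover counting error only.

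Counts were tested with edgeR 4.0.16 (R 4.3.3): filterByExpr (count of at least 10, total of at least 15), TMM, and 1 quasi-likelihood fit of 9 libraries with group as the term. P-values were adjusted by Benjamini and Hochberg over 17545 genes within each comparison. Total counts of 49337232 to 80877288 per library leave at least 308 counts for each of the 9 genes. Groups came from the treatment labels. Alternatives used DESeq2 1.42.0, limma 3.58.1 on log2(FPKM + pseudocount), other scalings and filters, left-out libraries and a replicate term. Identities and shared words were computed with Biopython on GENCODE transcripts of GRCm38, and promoters are RefSeq's. Labels give replicate numbers with no stated meaning. For cryopreservation-1 and fresh, deviations of same-numbered libraries from their group means correlated at 0.172, 0.239 and 0.294. These values do not establish a pairing, and the alternative with a replicate term applied it to all 9 libraries. The rule for the 9 genes uses no measured value, but they and all lists were chosen with earlier results of these data known. All 9 genes are named, and of each related list the genes called and the most abundant. Other genes of these lists that are named were chosen after their values were seen.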

Additional observations from a re-analysis of the deposited data

How the results depend on the processing

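Over 21 alternatives, the 567 recomputed log2 differences of the 9 genes kept direction and side of the threshold in 495 cases. The 10 that became calls were all Nlrp4c, lower in cryopreservation-2, and 62 changed sign, of which 0 were called. The cause of these changes was not tested.

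Nlrp4c was the 1 member called in cryopreservation-2 against fresh by DESeq2 and by limma with pseudocounts of 1, 0.1 and 5, and in cryopreservation-2 against cryopreservation-1 by the same fits and by limma without a filter. Over all genes in cryopreservation-2 against fresh, 2471 were called by DESeq2, 1688, 1597 and 1693 by limma with pseudocounts of 1, 0.1 and 5, 429 with only these groups fitted, and 194 without the 3 libraries of fewest detected genes. In cryopreservation-2 against cryopreservation-1, DESeq2 called 1892, limma 1271, 1077 and 1359 with those pseudocounts and 882 without a filter, and 0 were called without those 3 libraries. In cryopreservation-1 against fresh, DESeq2 called 43 and the fit of these groups alone called 1. The share of higher genes among calls in cryopreservation-2 against fresh was 59.1% in edgeR, 74.0% by limma with a pseudocount of 1, 82.1% with only these groups fitted, and 75.3% without the 3 libraries. With 1 library left out, 231 to 786 genes and 0 to 1 members were called in cryopreservation-2 against fresh, 15 to 480 genes in cryopreservation-2 against cryopreservation-1, and 0 to 1 genes in cryopreservation-1 against fresh.

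Deviations of same-numbered libraries correlated at 0.172, 0.239 and 0.294 between cryopreservation-1 and fresh. Between cryopreservation-2 and fresh the values were -0.162, 0.106 and -0.205. Between cryopreservation-2 and cryopreservation-1 they were -0.301, 0.090 and -0.214. Over all groups, 3 of 9 libraries were closest to their own number. In cryopreservation-1 against fresh the replicate block changed no call, with 0 genes called. With a replicate block, 500 and 230 genes were called in cryopreservation-2 against fresh and against cryopreservation-1, with 70.4% of the 500 higher. Under it, Nlrp9c in cryopreservation-1 against fresh had -0.0075, and Nlrp9b in cryopreservation-2 against fresh -0.00014.

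The other changes of sign were as follows. In cryopreservation-1 against fresh, RLE size factors gave -0.0073 for Nlrp4c, -0.0036 for Nlrp4e and -0.022 for Nlrp9c, upper-quartile scaling -0.00068 for Nlrp4c and -0.018 for Nlrp9c, and DESeq2 -0.0074 for Nlrp4c, -0.0036 for Nlrp4e and -0.022 for Nlrp9c. The fit of these groups alone gave -0.0049 for Nlrp4c, -0.00076 for Nlrp4e and -0.020 for Nlrp9c, the fit with no filter on counts -0.0070 for Nlrp9c, and the removal of a trend with gene length -0.0042 for Nlrp4c and -0.022 for Nlrp4e. Without the 3 libraries of fewest detected genes, Nlrp4c had -0.085, Nlrp4e -0.18, Nlrp4f -0.041 and Nlrp9c -0.099 there. In cryopreservation-2 against fresh, the fit without them gave -0.0070 for Nlrp4a, -0.13 for Nlrp9b and -0.10 for Nlrp9c. In cryopreservation-2 against cryopreservation-1 it gave -0.27 for Nlrp9a and -0.0011 for Nlrp9c. There limma gave Nlrp9a -0.0094, -0.011 and -0.0036 with pseudocounts of 1, 0.1 and 5 and -0.0094 without a filter, and removal of the length trend gave Nlrp4b 0.090.

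With 1 library left out, in cryopreservation-1 against fresh, Nlrp4c ran from -0.10 to 0.11, Nlrp4e from -0.24 to 0.17, Nlrp4f from -0.087 to 0.14, Nlrp9a from -0.65 to 0.052, Nlrp9b from -0.28 to 0.060 and Nlrp9c from -0.12 to 0.094. In cryopreservation-2 against fresh, Nlrp14 ran from -0.37 to 0.072, Nlrp4a from -0.14 to 1.07, Nlrp4e from -0.53 to 0.013, Nlrp9a from -0.9993 to 0.17, Nlrp9b from -0.13 to 0.16 and Nlrp9c from -0.20 to 0.37. In cryopreservation-2 against cryopreservation-1, Nlrp14 ran from -0.023 to 0.42, Nlrp4b from -0.57 to 0.31, Nlrp4e from -0.54 to 0.0053, Nlrp9a from -0.73 to 0.52, Nlrp9b from -0.057 to 0.30 and Nlrp9c from -0.19 to 0.38. Each of these genes had at least 308 counts per library, which bears on counting error only. Depth differs between the groups, as given above, and its part in these values was not tested. The intervals given above rest on the spread between 3 libraries a group.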
